A study of Mus musculus with 12 samples.

Results

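In mouse liver, fasted or re-fed, CREB occupied 6 sites that the study's gene table lists for 4 stress genes, Hspa5, Hspa1a, Creld2 and Herpud1. They are 6 of the 7547 sites that the fasted and re-fed peak lists hold together. A site was taken as a member where its interval in the lists contained a CREB peak centre listed for one of these genes. Hspa5, Hspa1a and Creld2 had 1 site each, and Herpud1 had 3. All 4 genes were found, and every listed centre fell in a deposited interval.

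The CREB libraries came from whole liver of 10 male C57BL/6J mice (strain label C57/Bl6), aged 8 to 12 weeks, 5 per group. The fasted group went without food for 24 h and was sampled at ZT03, that is, 3 h after lights on. The re-fed group had the same 24 h fast followed by 2 h of food and was sampled at ZT05, so feeding and a 2 h later time of day cannot be told apart. The labels give no genetic change for either group, and the antibody, CREB-1, recognises CREB whether or not it is phosphorylated. Chromatin immunoprecipitation with sequencing (ChIP-seq) of these livers addressed whether fasting changes where and how strongly CREB binds DNA. Peaks were called on the pooled reads of the 5 livers of a group, and the peak lists analysed here have 1 height per site. Heights of individual livers, which the study tabulates elsewhere, were not used here, so none of the differences below was tested against the spread between mice.

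The endoplasmic reticulum (ER) folds secreted and membrane proteins, and hepatocytes, which secrete most plasma proteins, carry a large ER. When unfolded proteins build up there, the sensors ATF6, IRE1 and PERK start the unfolded protein response, which raises chaperones, folding enzymes and the machinery that removes misfolded proteins. The heat shock response does the same for the cytosol through HSF1. CREB, a leucine zipper factor that binds the cAMP response element (CRE), is related to ATF6 and XBP1, and the sequences these factors bind share the core letters ACG. Hspa5 encodes BiP, the Hsp70 chaperone of the ER lumen that also holds the sensors inactive. Creld2 encodes a cysteine-rich ER protein that rises in ER stress, and Herpud1 encodes a membrane protein of ER-associated degradation, the route by which misfolded proteins are returned to the cytosol and destroyed. Hspa1a encodes the inducible cytosolic Hsp70.

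The stretches just upstream of the 4 genes are shown because CREB and the stress factors are both known to act through promoter elements. Each is the 250 bases before the gene's start in RefSeq on GRCm38.p6, read 5′ to 3′ on the gene's own strand. Capitals mark matches to stress or CRE elements, which are described after the sequences.
Hspa5, chr2:34771840-34772089, plus strand: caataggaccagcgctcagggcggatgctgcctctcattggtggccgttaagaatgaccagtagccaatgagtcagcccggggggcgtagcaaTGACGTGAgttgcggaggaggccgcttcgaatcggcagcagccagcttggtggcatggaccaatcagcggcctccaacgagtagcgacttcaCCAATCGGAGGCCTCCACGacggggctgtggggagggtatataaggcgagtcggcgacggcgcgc
Hspa1a, chr17:34972157-34972406, minus strand: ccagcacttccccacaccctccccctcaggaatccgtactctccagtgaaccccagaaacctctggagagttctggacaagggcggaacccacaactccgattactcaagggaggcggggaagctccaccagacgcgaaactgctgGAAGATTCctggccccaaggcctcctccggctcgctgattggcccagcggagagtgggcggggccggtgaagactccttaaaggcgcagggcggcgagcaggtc
Creld2, chr15:88819396-88819645, plus strand: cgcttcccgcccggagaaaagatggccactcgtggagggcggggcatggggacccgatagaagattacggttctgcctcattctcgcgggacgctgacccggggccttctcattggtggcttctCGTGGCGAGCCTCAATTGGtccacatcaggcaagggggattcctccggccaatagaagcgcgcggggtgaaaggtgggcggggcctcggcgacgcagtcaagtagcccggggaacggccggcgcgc
Herpud1, chr8:94386179-94386428, plus strand: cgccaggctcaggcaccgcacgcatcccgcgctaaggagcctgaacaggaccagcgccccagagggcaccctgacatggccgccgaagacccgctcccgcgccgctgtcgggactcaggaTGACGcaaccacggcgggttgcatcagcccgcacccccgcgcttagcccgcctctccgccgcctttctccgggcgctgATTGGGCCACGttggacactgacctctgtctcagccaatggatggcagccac

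All 4 stretches are rich in G and C, at 62.4% for Hspa5, 63.2% for Hspa1a, 66.0% for Creld2 and 69.2% for Herpud1. Elements of ER stress were found in the promoters of the 3 ER genes, each of a kind that few promoters hold. The Hspa5 window held an ER stress response element (ERSE, CCAAT followed 9 bases later by CCACG) from 65 to 47 bases upstream of the start. The Creld2 window held an ERSE on the opposite strand, from 126 to 108 bases upstream. Of all 32851 promoter windows of the same length in the table, 37 held an ERSE on either strand, 0.113%. Herpud1 held the variant called ERSE-II (ATTGG, 1 base, CCACG) from 52 to 42 bases upstream, an element found in 10 windows, 0.0304%. Each ERSE contains the CCAAT box, which alone was present in 33.8% of windows. The Hspa1a window held neither of these and instead held a heat shock unit, GAANNTTC, from 104 to 97 bases upstream, which 6.69% of windows hold.

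No window of the 4 genes held the full CRE octamer, TGACGTCA, which is its own reverse complement and was present in 1.55% of all windows. Hspa5 held an octamer that differs from it at 1 base, TGACGTGA, from 157 to 150 bases upstream, and 10.6% of windows hold the octamer with at most 1 mismatch. Its first letters, TGACG, also match on their own the shorter CRE core that CREB is known to bind. Herpud1 held this core from 130 to 126 bases upstream, and Hspa1a and Creld2 held it on neither strand. The core was present in 17.8% of windows. The element TGACGTGG, a core of the unfolded protein response element bound by XBP1, was in none of the 4 windows and in 0.563% of all. The exact run TATAAA was in none of the 4 and in 12.4% of all. Other forms of the TATA box were not searched, and the Hspa5 window holds the related run TATATAAG close to the gene's start. A match is a run of letters, not a measured site.

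The CREB peaks are in mm8 coordinates and the printed promoters in GRCm38.p6, so they cannot be laid over each other here. For Hspa5 the gene table also gives a gene start in mm8, and the centre of the deposited interval lay 150 bp upstream of it. That value and the position of the CRE-like octamer in the printed promoter, 157 to 150 bases upstream, are distances to the start in different annotations and are given side by side only. No mm8 start was used for Hspa1a, Creld2 or Herpud1, and the table lists a site for a gene when it lies within the gene or up to 10 kb upstream, so their sites are not placed relative to a promoter here.

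Occupancy of the 4 genes ran from a site at Hspa1a higher than 94.5% of all CREB sites to one at Herpud1 higher than 12.6%. Heights are in RPM (reads per 1000000), the tallest stack of extended reads in a peak scaled to the reads of the pool, and both lists carry the fasted pool's height. One read was worth 0.0236 RPM, which puts the fasted pool at about 42400000 reads, and every height was a whole number of reads to within 1.1e-09 reads. Across all merged sites the median height was 0.708 RPM with quartiles of 0.519 and 1.20 RPM, from 0.165 to 13.6 RPM. In whole liver a site bound in fewer cells and a site bound less often in each cell cannot be told apart. Intervals given with heights are exact 95% Poisson intervals of the site's own reads and cover counting error only, not the spread between mice.

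Hspa1a, the cytosolic chaperone, had the strongest site of the group, at chr17:34590100-34590210. Its height was 3.30 RPM or 140 reads (2.78 to 3.90 RPM). Hspa1a has a near-identical neighbour, Hspa1b, and the upstream windows of both genes share an unbroken identical run of 201 bases. Whether the peak lies in that run was not determined, and how reads with several positions were treated is not given in the sources used here. Where it does, reads could not be assigned to one copy and the height would be uncertain between them.

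Hspa5, the ER chaperone BiP, followed with a site at chr2:34593878-34594018. Its height was 1.75 RPM or 74 reads (1.37 to 2.19 RPM), higher than 83.7% of all sites. The intervals of the Hspa1a and Hspa5 sites did not overlap each other, and neither overlapped those of the other 4 sites.

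The remaining sites lay near the median of the lists or below it, and their intervals overlapped one another. Of the 3 Herpud1 sites, the second in chromosome order, chr8:97275430-97275626, was the highest at 0.826 RPM or 35 reads (0.575 to 1.15 RPM), above 59.7% of sites. The third, chr8:97281915-97282025, had 0.661 RPM or 28 reads (0.439 to 0.955 RPM). The first, chr8:97266864-97266974, had 0.472 RPM or 20 reads (0.288 to 0.729 RPM). Creld2, at chr15:88647189-88647388, had the same height as the third Herpud1 site, 0.661 RPM from 28 reads, above 44.5% of sites. These 4 sites could not be ordered beyond their counting error.

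**Figure D1:**
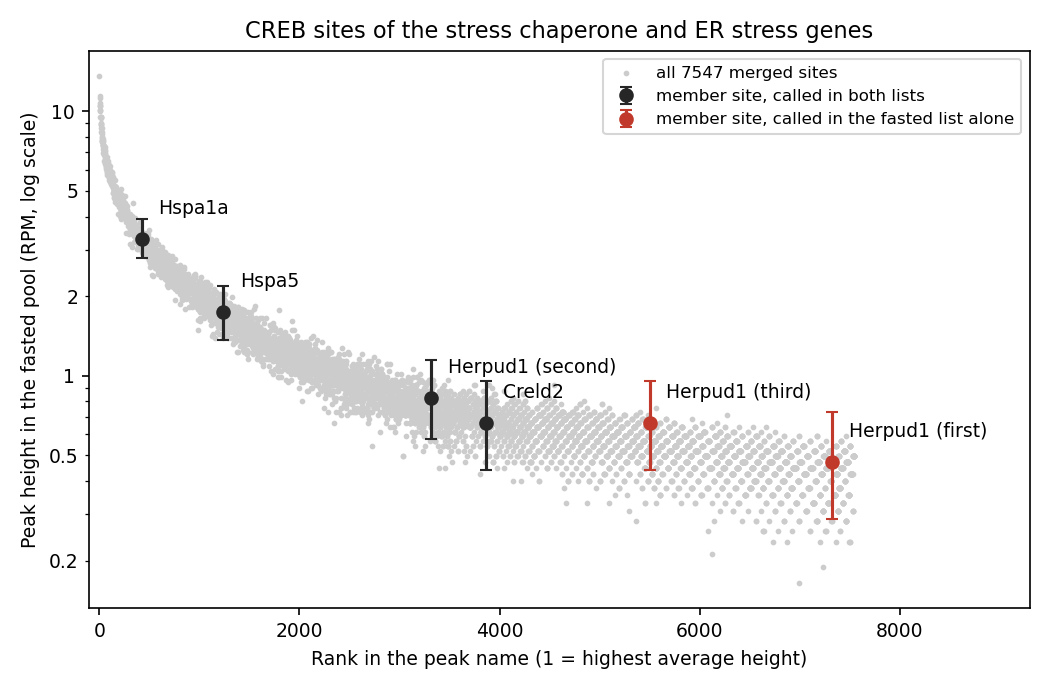
Peak height in the fasted pool (vertical, RPM, log scale) against the rank in the peak name (horizontal, 1 is the highest average height) for all 7547 merged sites in grey. The 6 sites of the 4 stress genes are drawn with exact 95% Poisson intervals, black where called in both lists and red where called in the fasted list alone. Hspa1a at 3.30 RPM and Hspa5 at 1.75 RPM stand in the upper ranks, and the 3 Herpud1 sites and Creld2 lie between 0.472 and 0.826 RPM.

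Each of the 4 genes had a site in both deposited lists, which for Creld2 and Herpud1 rests on peaks that overlap at their edges only, as described with the widths. The sites of Hspa5, Hspa1a and Creld2 and the second Herpud1 site were in both lists, 4 of 6, against 61.5% of all merged sites. The first and the third Herpud1 sites were called in the fasted list alone, 2 of 6, against 29.0% of all sites. No site of the 4 genes was called in the re-fed list alone, a class that held 9.43% of all sites. With 6 sites these shares are near those of the whole lists. A call in 1 list alone says that the other pool missed a threshold, not that binding differed. Sites called in both lists had a median height of 0.991 RPM, those of the fasted list alone 0.567 RPM and those of the re-fed list alone 0.401 RPM, and the 2 single-list sites of Herpud1, at 0.472 and 0.661 RPM, lie on either side of the median of their class.

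The number in a peak's name ranks the sites by the average of their fasted and re-fed pooled heights, as was checked on the pooled heights of 1525 sites in the study's height table, whose values are not given here. Sites next to each other in rank have nearly the same average, so a site whose fasted height stands above its neighbours in rank has a re-fed height below theirs. For each site the fasted height was therefore divided by the median of the 200 sites nearest in rank, 100 on each side. Over all merged sites these ratios had quartiles of 0.923 and 1.08. Intervals given with ratios scale the site's own reads and hold its neighbours fixed. The same reads enter the rank, so an interval that includes 1 does not measure departure from the neighbours.

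By this measure the fasted heights at Hspa5, Hspa1a and Creld2 stood close to those of sites with a like average. Hspa5, at rank 1239, had a ratio of 1.01 (0.796 to 1.27), and 103 of its 200 neighbours were lower. Hspa1a, at rank 426, had a ratio of 1.01 (0.853 to 1.20) with 107 of 200 lower. Creld2, at rank 3867, had the lowest ratio of the 6, 0.966 (0.642 to 1.40), with 67 of 200 lower. These 3 ratios lie within the quartiles of the whole lists.

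The Herpud1 sites had the higher ratios among the 6, those of the second and the third above the upper quartile of the whole lists. Each interval included 1, which is no measure of departure from the neighbours. The first site, at rank 7323, had a ratio of 1.05 (0.643 to 1.63) with 129 of 200 neighbours lower. The second, at rank 3318, had 1.09 (0.762 to 1.52) with 150 of 200 lower. The third site, at rank 5502, stood highest relative to its rank, with a ratio of 1.22 (0.809 to 1.76) and 191 of its 200 neighbours lower. It is also one of the pair called in the fasted list alone, and a call in one list and the height in that list rest on the same reads.

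**Figure D2:**
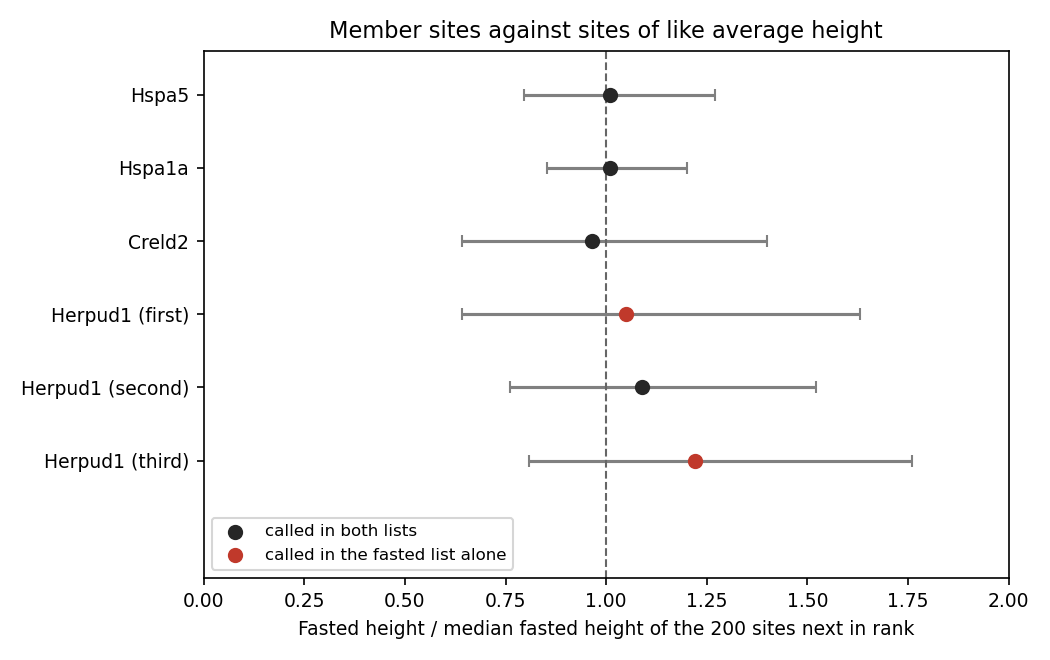
Fasted height of each site divided by the median fasted height of the 200 sites nearest to it in rank (horizontal, no unit), with exact 95% Poisson intervals of the site's own reads as bars. The dashed line marks equality at 1. Ratios run from 0.966 at Creld2 to 1.22 at the third Herpud1 site. Every bar crosses the line, but the bars hold the neighbours fixed and do not measure departure from them.

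Neither list holds a re-fed height, but the rank sets a floor for it. A site ranked above another has an average at least as high, so its fasted and re-fed heights together come to at least the highest fasted height found further down the ranking. By this arithmetic the re-fed height was at least 0.283 RPM at Hspa5 and at least 0.260 RPM at both Hspa1a and Creld2. It was at least 0.142 RPM at the second and 0.0944 RPM at the third Herpud1 site. The first Herpud1 site had to reach at least 0.118 RPM by its rank, and at least 0.228 RPM because every listed site passed an average of 0.35 RPM. The re-fed pool therefore held reads at all 6 sites, those called in the fasted list alone included. The same floors cap the fasted height at 2.07 times the re-fed height for the first Herpud1 site and at 2.55 times for Creld2. The caps are loose elsewhere, at 5.83 and 7.0 times for the second and the third Herpud1 sites, 6.17 times for Hspa5 and 12.7 times for Hspa1a, and none gives a lowest possible ratio. Taken from the second highest height further down, the floor was 0.165 RPM at Hspa1a and 0.0472 RPM at the third Herpud1 site.

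The intervals of the shared sites differed in width, which tells how far apart the fasted and the re-fed peak lay. Every peak of the fasted list alone was 111 bp wide and every peak of the re-fed list alone 109 bp, whereas a shared site carried the merged interval of both, from 111 to 219 bp with a median of 122 bp. At Hspa1a the interval was 111 bp, so the re-fed peak lay inside the fasted one and the centres were within 1 bp. This was the narrowest width, found at 7.10% of shared sites. At Hspa5 the interval was 141 bp and the centres were 31 bp apart, against a median of 12.0 bp and an upper quartile of 24.0 bp over shared sites. Intervals at least as wide as that of Hspa5 were found at 809 shared sites, 17.4%.

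Creld2 and the second Herpud1 site had intervals near the widest in the lists. The Creld2 interval was 200 bp, with centres 90 bp apart, and the fasted and re-fed peaks overlapped by 20 bp. Only 32 of the 4645 shared sites, 0.689%, were as wide. The Herpud1 interval was 197 bp, with centres 87 bp apart and an overlap of 23 bp, and 39 shared sites, 0.840%, were as wide. At both genes the peaks called in the 2 pools thus had different centres.

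Width moved with depth, and these are shallow sites. Among the 1494 shared sites of 25 to 40 reads the quartiles of width were 117, 126 and 141 bp, and 19 of them, 1.27%, reached at least 197 bp. Among the 636 shared sites of 60 to 90 reads, the range that holds Hspa5, the quartiles were 115, 119 and 127 bp, and 0 reached it. Among the 238 of 120 to 160 reads, the range that holds Hspa1a, the quartiles were 113, 117 and 122 bp, and again 0 reached it. The part that sampling of few reads has in the offsets at Creld2 and Herpud1 was not tested. Where the overlap of the underlying peaks had to cover at least 50% of the fasted peak, Creld2 and the second Herpud1 site no longer counted as shared, and 2 of the 6 sites did, those of Hspa5 and Hspa1a.

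**Figure D3:**
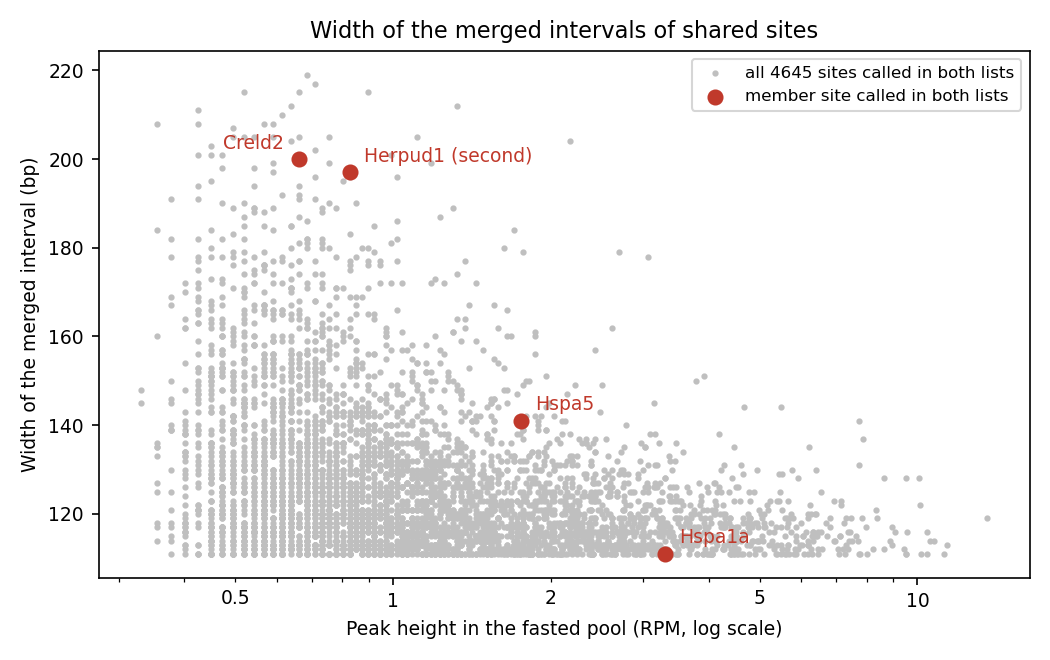
Width of the merged interval (vertical, bp) against peak height in the fasted pool (horizontal, RPM, log scale) for the 4645 sites called in both lists in grey, with the shared sites of the 4 genes in red. Creld2 at 200 bp and the second Herpud1 site at 197 bp lie near the top of the range among shallow sites, and Hspa1a at 111 bp lies at its lower edge.

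The surroundings of the 4 genes differed. The usual number of other sites within 100 kb of a CREB site was not computed. The Herpud1 sites formed a group of their own, with 8609 bp between the first and second centres and 6442 bp between the second and the third. The next site to the left was 163268 bp away, called in the re-fed list alone at 0.401 RPM, and the next to the right was 445525 bp away, called in both lists at 3.38 RPM. Within 100 kb of the second Herpud1 site the only other CREB sites were the 2 listed for the same gene.

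Hspa5 had no site to its left for 365136 bp, where one called in the re-fed list alone had 0.496 RPM. To its right a site of 3.07 RPM, at rank 402 and called in both lists, lay 30370 bp away. All 3 other sites within 100 kb were called in both lists, as were 61.5% of all merged sites. Hspa1a was the tallest site of its neighbourhood. The nearest sites, 29595 bp to the left at 0.519 RPM and 18827 bp to the right at 0.449 RPM, were both called in the fasted list alone, and 2 of the 4 others within 100 kb were called in both lists.

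Creld2 lay in the densest stretch, with 8 other sites within 100 kb, of which 5 were called in both lists. The nearest were 68104 bp to the left at 0.850 RPM and 12234 bp to the right at 0.708 RPM, both in both lists. The Creld2 site is also listed for Alg12, a mannosyltransferase of the ER that builds the sugar chain attached to new glycoproteins. Alg12 is transcribed away from Creld2, and the ERSE of the printed Creld2 window is the same run of bases that lies 220 to 202 bases upstream of Alg12. The site cannot be assigned to one of the pair.

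**Figure D4:**
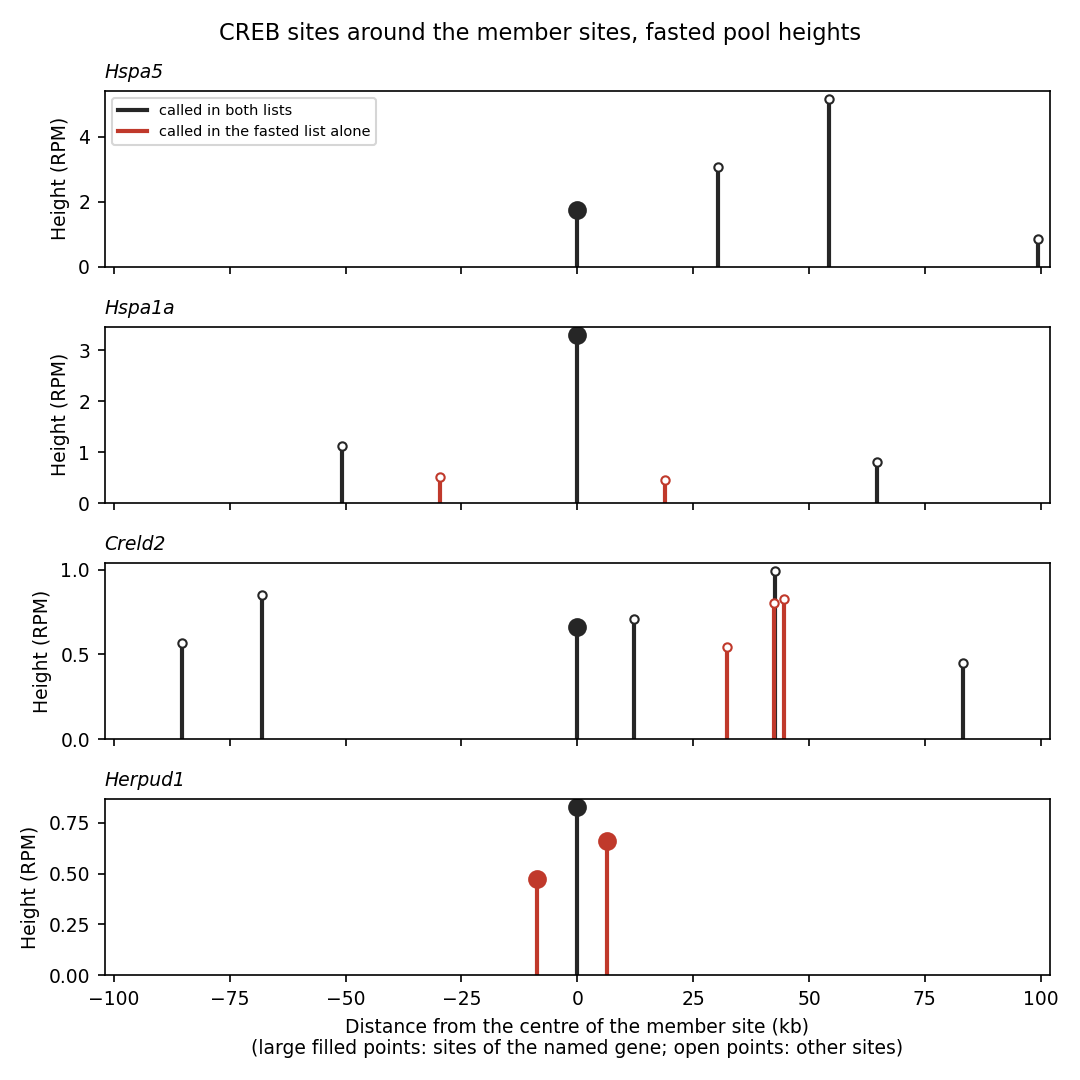
CREB sites within 100 kb of the centre of each gene's site (for Herpud1, the second site), with the fasted height (vertical, RPM, a separate scale for each gene) against distance (horizontal, kb). Large filled points are sites of the named gene and open points are other sites, black where called in both lists and red where called in the fasted list alone. Herpud1 has its own 3 sites only, and Creld2 has 8 other sites around it.

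The 4 genes belong to a wider network of folding and stress genes, for which a list of 78 genes in 4 classes was used. A CREB site was listed for 44 of them, the table lists 10 with no peak centre, and 24 were not in the rows used here and were not looked up. One sheet of the table holds bound genes only and is held in part, so these counts are no rate of binding and have no share over all genes beside them. The 44 genes had 52 distinct sites, of which 35 were called in both lists, 67.3% against 61.5% of all merged sites. Another 13 were called in the fasted list alone, 25% against 29.0% of all sites, and 4 in the re-fed list alone, 7.69% against 9.43%. Their median height was 0.826 RPM with quartiles of 0.614 and 1.25 RPM, and 29 of 52 lay above the median of all sites, 0.708 RPM. Calls in both lists went with height. At or above that median, 87.8% of all merged sites and 26 of the 29 sites of the list were in both. Without the 4 genes, 31 of 46 sites were in both lists, 67.4%, with the same median of 0.826 RPM. The 6 sites of the 4 genes had a median of 0.744 RPM, and 3 of them were above the median of all sites.

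Heat shock genes of the cytosol and mitochondria, the class of Hspa1a, had the highest median of the 4 classes, 1.11 RPM over 17 sites. Of these 13 were in both lists, 76.5% against 61.5% of all merged sites and 87.8% of those at or above the median height. Above the median of all sites were 13. Hspa1a at 3.30 RPM headed this class. Hspa4, a nucleotide exchange factor of the Hsp110 family that works with Hsp70, followed with 2.20 RPM from 93 reads, in both lists. Sites called in the fasted list alone were those of Stip1 at 0.543 RPM and Ahsa1 at 0.685 RPM, cochaperones of Hsp90, and 1 of the 3 sites of the Hsp40 gene Dnajb4 at 1.09 RPM, whose other sites were in both lists at 1.25 and 0.873 RPM. Chordc1, another Hsp90 cochaperone, had a site in the re-fed list alone at 0.496 RPM.

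ER chaperones and folding enzymes, the class of Hspa5 and Creld2, had 17 sites with a median of 0.661 RPM, 8 of them above the median of all sites. In both lists were 11, 64.7% against 61.5% of all merged sites. Of the 17 sites, 2 were higher than that of Hspa5 at 1.75 RPM, namely 1 site of Txndc11 and, at 1.89 RPM in both lists, that of the BiP cochaperone Dnajb11, named here after its value was seen. Txndc11, a thioredoxin-domain protein of the ER membrane, had a site of 1.96 RPM in the fasted list alone and one of 1.16 RPM in both. The other sites of the fasted list alone were those of Hsp90b1 (GRP94, the Hsp90 of the ER) at 0.590 RPM, of the disulphide reductase Dnajc10 at 0.472 RPM, and of Creld1, the paralogue of Creld2, at 0.826 RPM. Calr, which encodes the lectin chaperone calreticulin, was called in the re-fed list alone at 0.614 RPM. Manf, a secreted protein of the ER stress response, was also called there alone and had the lowest site of the list, 0.283 RPM from 12 reads. Its ratio to its neighbours in rank was 0.632 (0.326 to 1.10), and 2 of 200 were lower. A call in the re-fed list alone goes with a low fasted height at a given rank, so this ratio is no separate result.

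ER-associated degradation and translocation, the class of Herpud1, had 12 sites. Of these 6 were in both lists, 50.0% against 61.5% of all merged sites, and 5 were in the fasted list alone, 41.7% against 29.0%, 2 of them those of Herpud1. Differences between classes were not tested. Its median was 0.673 RPM, and 4 sites were above the median of all sites. The class nevertheless held the highest site of the list, that of Ube2j1, the ubiquitin-conjugating enzyme of the ER membrane, with 5.10 RPM from 216 reads in both lists. Edem1, a lectin that directs misfolded glycoproteins to degradation, had 2 sites of 0.685 RPM, 1 in both lists and 1 in the fasted list alone. The latter had a ratio to its neighbours in rank of 1.32 (0.883 to 1.89), with 197 of 200 lower. A call in the fasted list alone goes with a high fasted height at a given rank, so this ratio is no separate result. Ubxn4, an ER adaptor of the ATPase p97, had a shared site of 1.02 RPM and one of 0.519 RPM in the fasted list alone. Sec61b, a subunit of the translocon, was called in the fasted list alone at 0.519 RPM, and the deubiquitinase Yod1 in the re-fed list alone at 0.590 RPM.

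Sensors and transcription factors of the unfolded protein response had 6 sites with a median of 0.980 RPM, 4 of them above the median of all sites. In both lists were 5, 83.3% against 61.5% of all merged sites and 87.8% of those at or above the median height. All 6 are named here after their values were seen. Creb3l2, a membrane-bound relative of CREB, had 1.63 RPM, Xbp1 1.46 RPM, and the genes of the sensors ATF6 (Atf6) and PERK (Eif2ak3) 0.779 and 0.685 RPM. Trib3, a pseudokinase induced in ER stress, had 1.18 RPM, above all 200 of its neighbours in rank, with a ratio of 1.32 (0.977 to 1.73). Ddit3, which encodes CHOP, was called in the fasted list alone at 0.590 RPM.

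**Figure D5:**
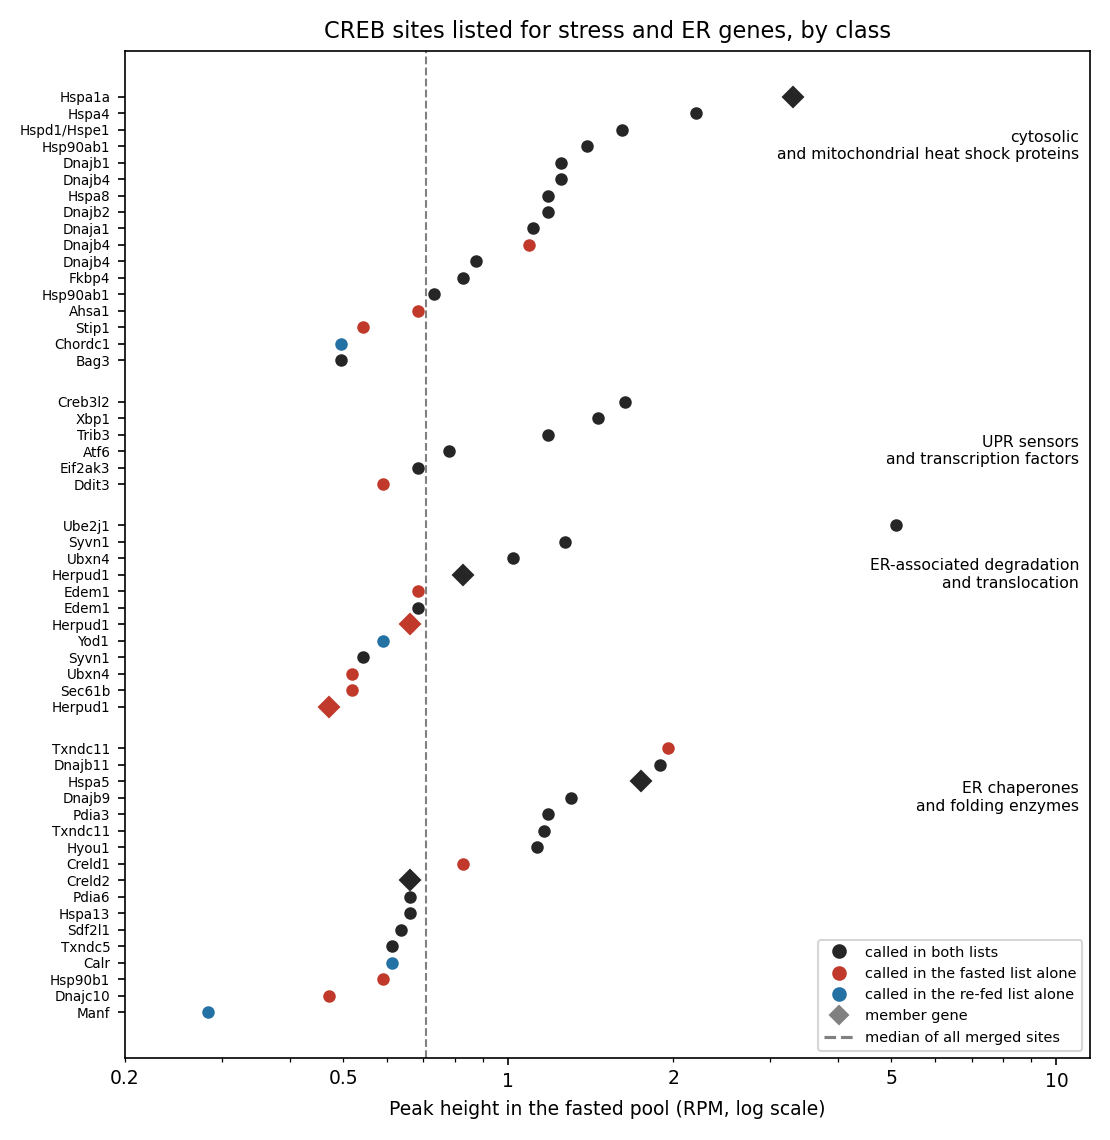
Peak height in the fasted pool (horizontal, RPM, log scale) of the 52 distinct CREB sites listed for genes of folding and stress, 1 line per site and grouped by class. Diamonds are the 6 sites of Hspa5, Hspa1a, Creld2 and Herpud1, and colour gives the list in which a site was called. Heights run from 0.283 RPM at Manf to 5.10 RPM at Ube2j1, and the dashed line is the median of all merged sites, 0.708 RPM.

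An mm8 gene start was used for 17 pairs of gene and site of the network, from 14 genes that include Hspa5. Of these 16 lay within 500 bp of the start and 12 within 500 bp upstream, with a median of 54.0 bp upstream. Over all 1786 such pairs in the rows used, from 1510 genes, 69.1% lay within 500 bp and 53.6% within 500 bp upstream, with a median of 55.0 bp upstream. The elements seen in the printed promoters were also present in other genes of the list. Of the 38 listed genes with a CREB site and a promoter window, 6 had an ERSE (6 of their 47 windows, against 0.113% of all windows). These were Hspa5, Creld2, Calr, Hsp90b1, Pdia6 and Syvn1, whereas Herpud1 alone had an ERSE-II. GAANNTTC was present in 5 genes (5 of 47 windows, against 6.69% of all windows), namely Hspa1a, Dnaja1, Fkbp4, Hspd1 and Hspe1. The core TGACG was present in 21 genes (23 of 47 windows, against 17.8% of all windows), Hspa5 and Herpud1 among them. The CRE octamer with at most 1 mismatch was present in 11 genes (12 of 47 windows, against 10.6% of all windows), Hspa5 among them. Over all 77 windows of the list, genes without a listed site included, an ERSE was present in 9 and GAANNTTC in 8. TGACG was present in 34 and the octamer with at most 1 mismatch in 14. The genes were listed for their known roles in these pathways, for which the same elements are known, so their share of ERSE is no independent result. The 38 were also kept for having a CREB site, so their shares of TGACG and of the CRE-like octamer are no independent result either.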

How the data were processed

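Fasted and re-fed mouse livers, 5 of each, were profiled for CREB by ChIP-seq. The authors mapped reads to mm8, pooled the 5 libraries of a group, called peaks with HOMER (version 3.0 and build mm8 per the submitters' processing notes) at a 5% FDR, required each peak to recur when any 1 liver was left out (pools of 4), and set a minimum average height of 0.35 RPM. The deposited signal is the peak height in RPM of the fasted pool, in both lists. Read numbers of single mice were not used here. There were 6835 fasted and 5357 re-fed peaks, and peaks sharing at least 1 bp were merged into 7547 sites.

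Sites of genes were found through peak centres in the rows of the study's gene table used here, which is held in part; no value of it is printed beyond the distance of sites to its gene starts. The members and lists were chosen with earlier results of these data known. The genes named were the 4 genes with all their sites, the 3 highest and 3 lowest sites of the 78-gene list (Dnajc10 and the first Herpud1 site tied), every gene with a site called in 1 list alone, and other genes listed for a member's site. Genes named beyond this (Dnajb11, the sensors and transcription factors, genes holding a motif, and those of the closing section) were chosen after their values were seen. No test was made, since the deposited lists give 1 pooled height per site and the heights per replicate in the study's supplement were not used here. Peak lists offer no marker genes with which to check the tissue label. Motifs were searched on both strands of the RefSeq windows, of which only the 250 upstream bases were used. The ERSE-II and the CRE with 1 mismatch were added to the search after the data were seen. Ranges of ratios scale the Poisson interval of the site's own reads.

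Alternatives covered the overlap rule, a height threshold, the sheets of the gene table, the number of neighbours in rank and the re-fed floor. The scripts were tested on simulated data. Computations used matplotlib 3.10.9, scipy 1.17.1, pandas 2.3.3 and numpy 2.4.6 under Python 3.11.15. Libraries of GR and C/EBPbeta from ad-lib fed mice, 1 of each, were not analysed here.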

Additional observations from a re-analysis of the deposited data

How the results depend on the processing

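Of 36 alternative values, 4 moved by the rules used. The other 32 were counts of sites within 1.5 times the reported count, or values whose change stayed within counting error. These values were shares, heights, ratios and re-fed floors, a floor being judged by the counting error of the site's fasted height. That error (2.78 to 3.90 RPM at Hspa1a, 0.439 to 0.955 RPM at the third Herpud1 site) exceeds both floors, so neither could move downward. Sites of the wider list in both lists went from 35 of 52 to 26 of 29 at or above the median height. This counted as unmoved because counts, not shares, were compared. The tally of 32 is therefore no measure of stability. The sites of the 4 genes called in both lists went from 4 to 2 of 6 where the underlying peaks, read from the width of the merged interval, had to overlap by at least 50% of the fasted peak, an alternative chosen after seeing the data. The share of all merged sites called in both lists, 61.5%, became 58.4% under that rule, 65.0% where gaps of up to 500 bp were bridged, and 87.8% among sites at or above the median height. Requiring 50% of each deposited interval changed nothing, because both lists carry the same merged interval at a shared site. With the floor set by the second highest fasted height further down the ranking, the re-fed floor fell from 0.260 to 0.165 RPM at Hspa1a and from 0.0944 to 0.0472 RPM at the third Herpud1 site. The minimum average height alone, added after seeing the data, gave 0.0391 RPM there and at Creld2 (0.260 RPM by rank), and 0.228 RPM at the first Herpud1 site (0.118 RPM by rank). Ratios to neighbours in rank did not move with 50 or 200 sites on each side. No paired analysis was possible because the groups are different mice and the deposited lists give 1 pooled height per site. Leaving out each replicate was not run on them, and the study's tabulated heights per replicate were not used here. With 20 to 35 reads at Creld2 and the Herpud1 sites, differences among them were not detectable at this depth.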

Other observations

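Several genes of the wider list had more than 1 CREB site, as Herpud1 did. They were picked for that after their values were seen. Syvn1, the ubiquitin ligase of the ER membrane that works with Herpud1, had a site of 1.27 RPM and one of 0.543 RPM, both called in both lists. The weaker of these had an interval of 194 bp, with centres 84 bp apart. Hsp90ab1, the constitutive cytosolic Hsp90, had sites of 1.39 and 0.732 RPM, both in both lists. Hspd1 and Hspe1, the mitochondrial chaperonin and its lid, which are transcribed from a common promoter region, were listed with the same site of 1.61 RPM.

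Wide intervals were seen at other genes of the list as well. The underlying fasted and re-fed peaks overlapped by under 50% of the fasted peak at 239 of the 4645 shared sites, 5.15%, and at 5 of the 35 shared sites of the list, 14.3%. These 5 sites are those of Creld2, Herpud1, Syvn1, Hspa13, an ER-associated Hsp70, and Dnajb4. The Hspa13 interval was 205 bp with centres 95 bp apart at 0.661 RPM, and that of Dnajb4 was 172 bp at 1.25 RPM. All but the Dnajb4 site had under 40 reads, and the part of depth in these offsets was not tested.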
